A study of Mus musculus with 8 samples.

Results

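The genes described here are the mucin-type glycosyltransferases, the Golgi enzymes that start, branch, lengthen and cap sugar chains. They were chosen by name: every array gene called Galnt, C1galt, Gcnt, B3gnt, B3galt, B4galt, Fut, St3gal or St6gal, the last with the St6galnac genes. The rule gave 69 of the 35715 gene names on the array, carried by 94 probes, and all 69 are current symbols in the RefSeq gene table. Each gene was read by the probe with its highest mean level. Of the 69, 55 were tested. The other 14 were not well above background, the scanner software's own test of a spot, on enough arrays.

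RNA came from female mice, from the ileum, which is the end of the small intestine before the colon. In the doxycycline group, 4 samples came from mice of the strain Rosa26rtTA/+, Hprt Myc-Tnk1tg given 50 µg of doxycycline per g of body weight in 100 µl. The saline group held 4 samples of the labelled strain Rosa26rtTA/+, Hprt Myc-Tnk1tg given 100 µl of 0.9% NaCl, although the titles and source names call these samples WT. Injections went into the peritoneal cavity and tissue was analysed 24 h later. Rosa26rtTA supplies a transcription activator that works with doxycycline, from a locus active in most cell types, and Tnk1 encodes a non-receptor tyrosine kinase. No group received doxycycline without the transgene, so drug and induction cannot be told apart. The labels do not say that each sample is a separate animal, so the spread behind each p-value is that between these samples and may be technical.

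Mucin-type O-glycosylation begins when a Galnt enzyme places N-acetylgalactosamine (GalNAc) on a serine or threonine. C1galt1 or B3gnt6 then builds a core 1 or core 3 structure, Gcnt enzymes branch it, B3gnt and B4galt enzymes lengthen the branches, and fucose and sialic acid are added at the ends. In the gut the main carrier of such chains is Muc2, the gel-forming mucin that goblet cells secrete. Several members chosen by name also work outside mucins: B4galt7 and B3galt6 on the linker of proteoglycans, B3galt4, B4galt5, B4galt6, B3gnt5 and St3gal5 on glycolipids, and Fut8 on N-glycans.

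Levels are log2 processed signals minus the array's 75th percentile, so 1 unit is a doubling and 0 is that percentile, and differences are doxycycline minus saline. The Tnk1 probe toward the 5′ end of the gene (chromosome 11, 69668633 to 69668692, mm9) read 0.13, 0.56, 0.59 and 0.34 with doxycycline, against -2.16, -2.25, -2.13 and -3.0 with saline, with every doxycycline value above every saline value. The probe toward the 3′ end differed by -0.46 (adjusted p = 0.149). Doxycycline arrays filled row 1 of the single slide and saline arrays row 2, so row and treatment cannot be told apart, and 54.7% to 57.0% of probes were well above background with doxycycline, against 39.6% to 43.1% with saline. Absorptive enterocyte markers summed to 10.17 to 10.84 with doxycycline and 10.32 to 10.58 with saline, and 0 of the 10 passed limma's threshold in either direction (1 at an unadjusted p under 0.05). Saline 2 and saline 4 stood apart from saline 1 and 3. The B cell gene Ms4a1 read 3.97 on saline 2, against -1.11, -1.68 and -1.78 on saline 1, 3 and 4, and the lipoprotein gene Apoa4 read -4.33 on saline 4, against 1.08, 3.46 and 1.44 on saline 1 to 3.

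With doxycycline, 12 of the 55 tested members fell and 4 rose, by limma at an adjusted p under 0.05 (Benjamini-Hochberg, 21342 genes tested). Among all genes, 8.06% fell and 5.97% rose, so the members' falls, 21.8% of those tested, stood above the background share while their rises, 7.27%, lay near it. Galnt15, counted as a rise, was well above background on 4 doxycycline and 0 saline arrays, so its test rests on dim saline values. The median difference was -0.14 over the members and 0.01 over all genes tested. Relative to the saline means, the members' median was -0.02, -0.05, -0.42 and -0.17 on doxycycline 1 to 4. On saline 1 to 4 it was 0.0, -0.1, -0.02 and 0.06, so doxycycline 1 and 2 lay within the saline range. Without doxycycline 3 the median difference was -0.06. In all 16 members that passed, the 4 doxycycline values lay on a single side of the 4 saline values. Counted by separation alone, 14 members (25.5%) lay wholly lower with doxycycline, against 13.1% of all genes, and 6 (10.9%) wholly higher, against 8.88%. Estimates were below 0 for 32 members and above 0 for 23, and 39 members did not pass in either direction. The count of rises moved with single arrays, to 9 without saline 4 and to 2 without doxycycline 1, 2 or 3 or saline 1, 2 or 3. Over all genes it moved too, from 1275 to 1474 without saline 4 and to between 641 and 1434 without those others. The count of falls stayed between 8 and 12 without any single array, and was 6 without saline 2 and 4 together. Falls over all genes numbered 1721 with all arrays, 726 to 1990 with single arrays left out and 1036 without saline 2 and 4. Galnt5, Galnt10, Galnt4, Galnt12 and B3gnt6 passed under every one of 23 alternatives to the processing.

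**Figure D1:**
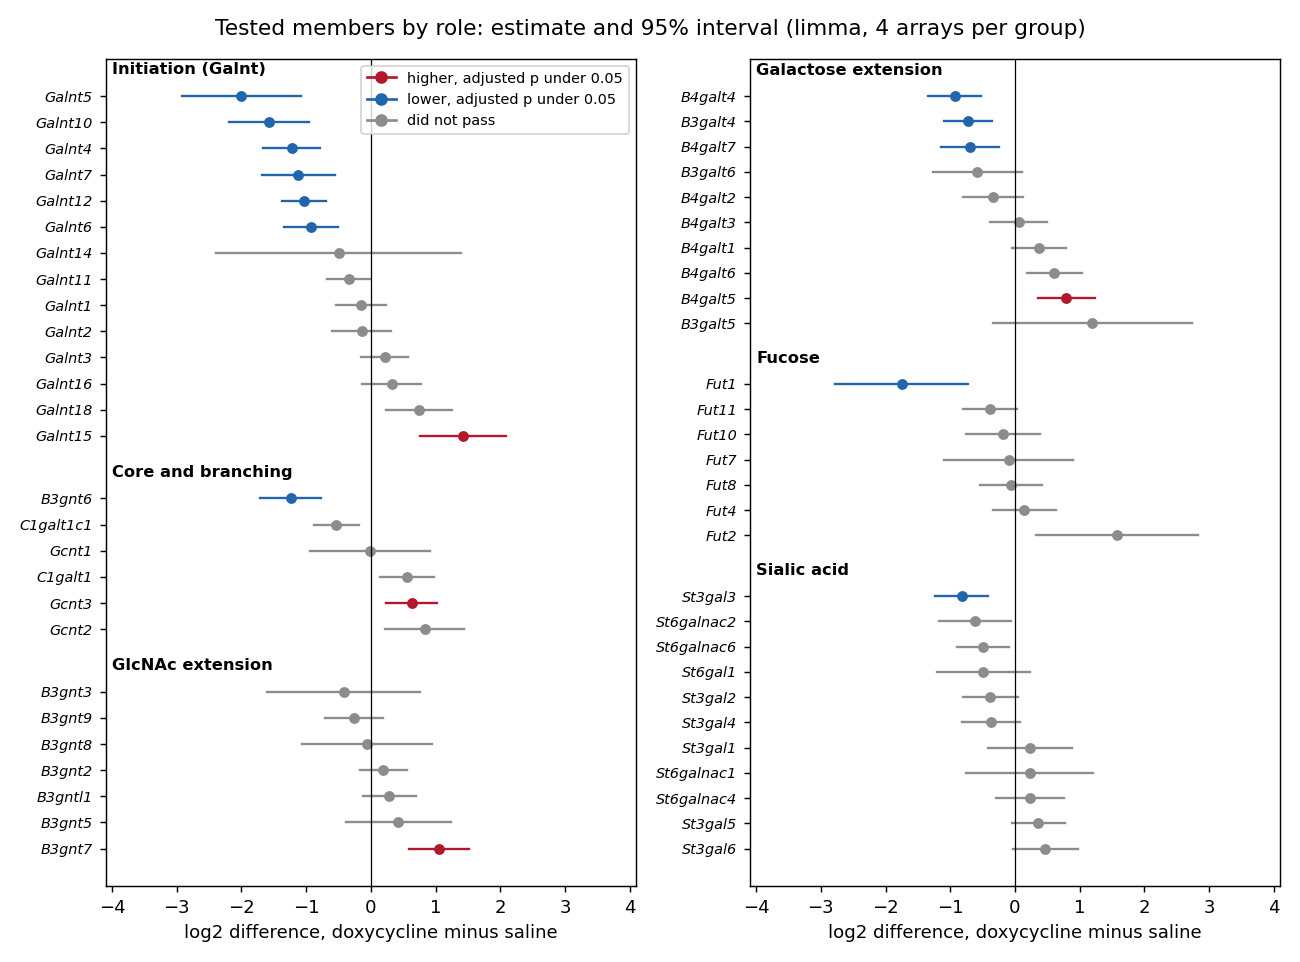
Each point is the estimated log2 difference, doxycycline minus saline, of 1 tested member, with its 95% interval as a bar, and members are grouped by the step they serve. Of the 14 tested initiation genes 6 fell, with estimates from -2.0 to -0.92, while rises were spread 1 each over initiation, core and branching, and both extension groups.

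Of the 12 falls, 6 were in genes of the first step. A count of 1 fall or rise at a step cannot be set apart from the shares over all genes (8.06% and 5.97%). Of 18 Galnt members 14 were tested, and 6 fell and 1 rose, with a median difference of -0.42. Markers of goblet cells were also lower: 6 of 7 goblet markers fell and 0 rose by limma (7 and 0 at an unadjusted p under 0.05). Their summed level was 8.87 to 9.45 with doxycycline and 10.19 to 10.61 with saline. This was not particular to goblet cells, as 6 of 8 enteroendocrine and 5 of 6 stem cell markers fell too. In whole tissue, fewer goblet cells and less RNA per goblet cell cannot be told apart, and the part of either in the Galnt results was not tested.

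Promoters of 3 members that fell by 2-fold or more, 1 fucosyltransferase that fell and 2 members that rose are shown to set the ends of the response side by side, from RefSeq (GRCm38.p6), 250 bases before the annotated start to 50 after it. Capitals mark matches, on either strand, to 6 short motifs. Of general promoter elements, the TATA box was searched as TATAAA and the GC box as GGGCGG. For intestinal and secretory factors, a site of the CDX type was searched as TTTATNG, an E-box of the kind bound by Atoh1 as CAGCTG and a bZIP core of the kind bound by Xbp1 as ACGTGG. A site of the STAT type was searched as TTCNNNGAA. The Galnt5 stretch is chr2:57997905-57998204 on the plus strand, Galnt10 chr11:57645192-57645491 (plus), Galnt7 chr8:57653006-57653305 (minus), Fut1 chr7:45617356-45617655 (plus), B4galt5 chr2:167349129-167349428 (minus) and B3gnt7 chr1:86302971-86303270 (plus).
Galnt5: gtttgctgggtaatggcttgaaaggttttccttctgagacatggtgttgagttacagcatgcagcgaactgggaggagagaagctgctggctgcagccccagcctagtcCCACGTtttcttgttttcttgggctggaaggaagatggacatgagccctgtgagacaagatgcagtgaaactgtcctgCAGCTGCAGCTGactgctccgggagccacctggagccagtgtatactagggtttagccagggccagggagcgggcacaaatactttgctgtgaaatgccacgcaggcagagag
Galnt10: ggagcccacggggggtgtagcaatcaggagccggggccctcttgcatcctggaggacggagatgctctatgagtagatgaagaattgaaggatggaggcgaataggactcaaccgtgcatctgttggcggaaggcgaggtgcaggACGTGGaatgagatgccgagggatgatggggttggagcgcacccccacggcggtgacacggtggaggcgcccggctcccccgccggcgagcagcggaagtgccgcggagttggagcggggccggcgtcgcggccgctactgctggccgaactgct
Galnt7: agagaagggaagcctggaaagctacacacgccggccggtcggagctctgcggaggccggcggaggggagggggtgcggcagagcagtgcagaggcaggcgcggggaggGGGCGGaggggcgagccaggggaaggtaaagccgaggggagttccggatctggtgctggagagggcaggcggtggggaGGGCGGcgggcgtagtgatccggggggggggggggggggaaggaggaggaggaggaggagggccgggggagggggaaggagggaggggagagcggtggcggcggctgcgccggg
Fut1: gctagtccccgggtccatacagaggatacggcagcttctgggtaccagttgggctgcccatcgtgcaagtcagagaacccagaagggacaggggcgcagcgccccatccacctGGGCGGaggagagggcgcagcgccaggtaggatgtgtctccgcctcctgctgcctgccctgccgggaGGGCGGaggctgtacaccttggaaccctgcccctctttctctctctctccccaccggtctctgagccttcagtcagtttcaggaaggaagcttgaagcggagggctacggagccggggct
B4galt5: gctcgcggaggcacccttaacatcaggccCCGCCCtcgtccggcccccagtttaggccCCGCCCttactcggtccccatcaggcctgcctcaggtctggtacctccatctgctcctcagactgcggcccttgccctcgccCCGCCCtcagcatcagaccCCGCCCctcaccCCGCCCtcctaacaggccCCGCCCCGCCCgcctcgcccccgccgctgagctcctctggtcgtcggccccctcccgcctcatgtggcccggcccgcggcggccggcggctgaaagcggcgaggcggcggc
B3gnt7: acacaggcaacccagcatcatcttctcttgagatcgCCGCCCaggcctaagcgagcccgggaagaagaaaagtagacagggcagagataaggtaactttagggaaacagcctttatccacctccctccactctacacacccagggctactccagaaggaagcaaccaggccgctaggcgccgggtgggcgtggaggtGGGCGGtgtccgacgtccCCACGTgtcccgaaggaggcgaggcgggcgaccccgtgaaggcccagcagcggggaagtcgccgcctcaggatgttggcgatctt

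The promoters of Galnt7 and B4galt5 were 75% G and C, and that of Galnt5 was 54.3%, against a median of 52.7% over all promoters in the table. The Galnt5 stretch holds 2 CAGCTG matches and 1 ACGTGG match, and Galnt10 holds 1 ACGTGG match. B4galt5 holds 7 GGGCGG matches, of which a pair overlap in sequence, Galnt7 and Fut1 hold 2 each, and B3gnt7 holds 2 with 1 ACGTGG match. The table has a promoter for 50 of the 69 members, and for 12 of the 16 that passed, and some members have more than 1. The GC box was in 6 of 10 promoters of members that fell, 2 of 3 that rose and 22 of 43 of the others, against 35.7% of all 32851 promoters. ACGTGG was in 2 of 10, 1 of 3 and 3 of 43, against 8.31%, and CAGCTG in 1 of 10, 0 of 3 and 5 of 43, against 16.3%. TATAAA (13.6% of all), TTTATNG (10.9%) and TTCNNNGAA (8.30%) had no match in the promoters of members that passed, and were in 1, 3 and 3 of the other 43. These are matches of letters and show no binding.

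Galnt5, one of the transferases that starts O-glycan chains, had the largest fall among the members that passed. Its probe (chromosome 2, 57891304 to 57891363, mm9) read -2.07, -2.66, -2.81 and -2.87 with doxycycline, against -0.71, -1.75, 0.31 and -0.27 with saline. All 4 doxycycline values lay lower, with saline 2 the nearest saline array. The difference was -2.0, a 4.0-fold lower level (SE 0.406, adjusted p = 0.0152).

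Galnt10, which in human enzyme assays prefers peptides that already carry GalNAc, read 3.15, 2.77, 1.98 and 2.51 with doxycycline, against 4.38, 3.66, 4.32 and 4.38 with saline (chromosome 11, 57600941 to 57601000). The groups did not overlap, and saline 2 was again the lowest saline value. The level was 3.0-fold lower (difference -1.58, SE 0.275, adjusted p = 0.00786).

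Galnt7 is another enzyme that acts on partly glycosylated peptides. It read 2.79, 2.59, 2.09 and 1.91 with doxycycline, against 3.45, 3.18, 3.31 and 3.94 with saline (chromosome 8, 60003498 to 60003557), with no overlap. The level was 2.18-fold lower (difference -1.13, SE 0.248, adjusted p = 0.0205). That result depended on single arrays, with an adjusted p of 0.0628 without doxycycline 3, 0.0549 without doxycycline 4 and 0.0565 without saline 1.

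Galnt4, which also adds GalNAc to partly glycosylated peptides, read 2.26, 2.19, 1.99 and 2.05 with doxycycline, against 3.24, 2.96, 3.37 and 3.80 with saline (chromosome 10, 98575514 to 98575573). The doxycycline values spanned little and lay wholly below the saline values. It was 2.33-fold lower (difference -1.22, SE 0.194, adjusted p = 0.00535).

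Galnt12, an initiating enzyme expressed in the digestive tract, read 3.17, 3.30, 2.95 and 3.40 with doxycycline, against 4.35, 4.12, 4.28 and 4.23 with saline (chromosome 4, 47135796 to 47135855). Both groups were tight, and the gap between them exceeded the range within either. It was 2.06-fold lower (difference -1.04, SE 0.149, adjusted p = 0.00334). Its second probe gave -1.15 (adjusted p = 0.0026).

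Galnt6, another initiating enzyme, read 5.30, 4.65, 4.97 and 4.85 with doxycycline, against 5.73, 5.70, 5.87 and 6.16 with saline (chromosome 15, 100522237 to 100522296). The groups did not overlap. It was 1.90-fold lower (difference -0.92, SE 0.185, adjusted p = 0.0144), and its second probe gave -0.84 (adjusted p = 0.0231).

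Galnt15 was the only initiating gene to rise. Its probe (chromosome 14, 32871453 to 32871512) read -2.12, -3.01, -2.58 and -2.39 with doxycycline and was well above background on all 4 arrays. With saline it read -3.72, -3.45, -3.93 and -4.69 and was not well above background on any. The limma result (adjusted p = 0.016) therefore rests on saline values not well above background. Setting each saline array to its dimmest signal still called well above background, or the probe's own where higher, gave a 1.45-fold higher level. The rise no longer passed with normexp background (difference 0.38, adjusted p = 0.114) or with a common floor (0.35, adjusted p = 0.16). Those differences are smaller than 1.45-fold, which is therefore not a firm lower bound.

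The other 7 tested Galnt genes did not pass. Galnt3, which in mice also glycosylates the hormone FGF23, read 2.37, 2.76, 2.35 and 2.49 with doxycycline, against 2.34, 2.10, 2.17 and 2.51 with saline. Its groups overlapped, and the difference was 0.21 (95% interval -0.16 to 0.58, adjusted p = 0.411). Galnt1 and Galnt2, initiating enzymes found in many tissues, differed by -0.15 (interval -0.54 to 0.23) and -0.14 (-0.60 to 0.31). Galnt18 read -1.54, -1.41, -1.47 and -1.22 with doxycycline, against -2.02, -1.94, -1.87 and -2.80 with saline. Its groups did not overlap, yet it missed the threshold (difference 0.75, adjusted p = 0.0555). Of the single arrays left out, only the removal of saline 4 brought it past (0.53, adjusted p = 0.0404). Galnt11 also did not overlap, with -0.63, -0.62, -1.0 and -0.64 with doxycycline, against -0.31, -0.29, -0.51 and -0.41 with saline (difference -0.34, adjusted p = 0.151). Galnt16 differed by 0.32 (adjusted p = 0.316). Galnt14 was well above background on 3 doxycycline arrays and 1 saline array, saline 4, where it read -1.10 against -4.53 to -5.30 on the other saline arrays.

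**Figure D2:**
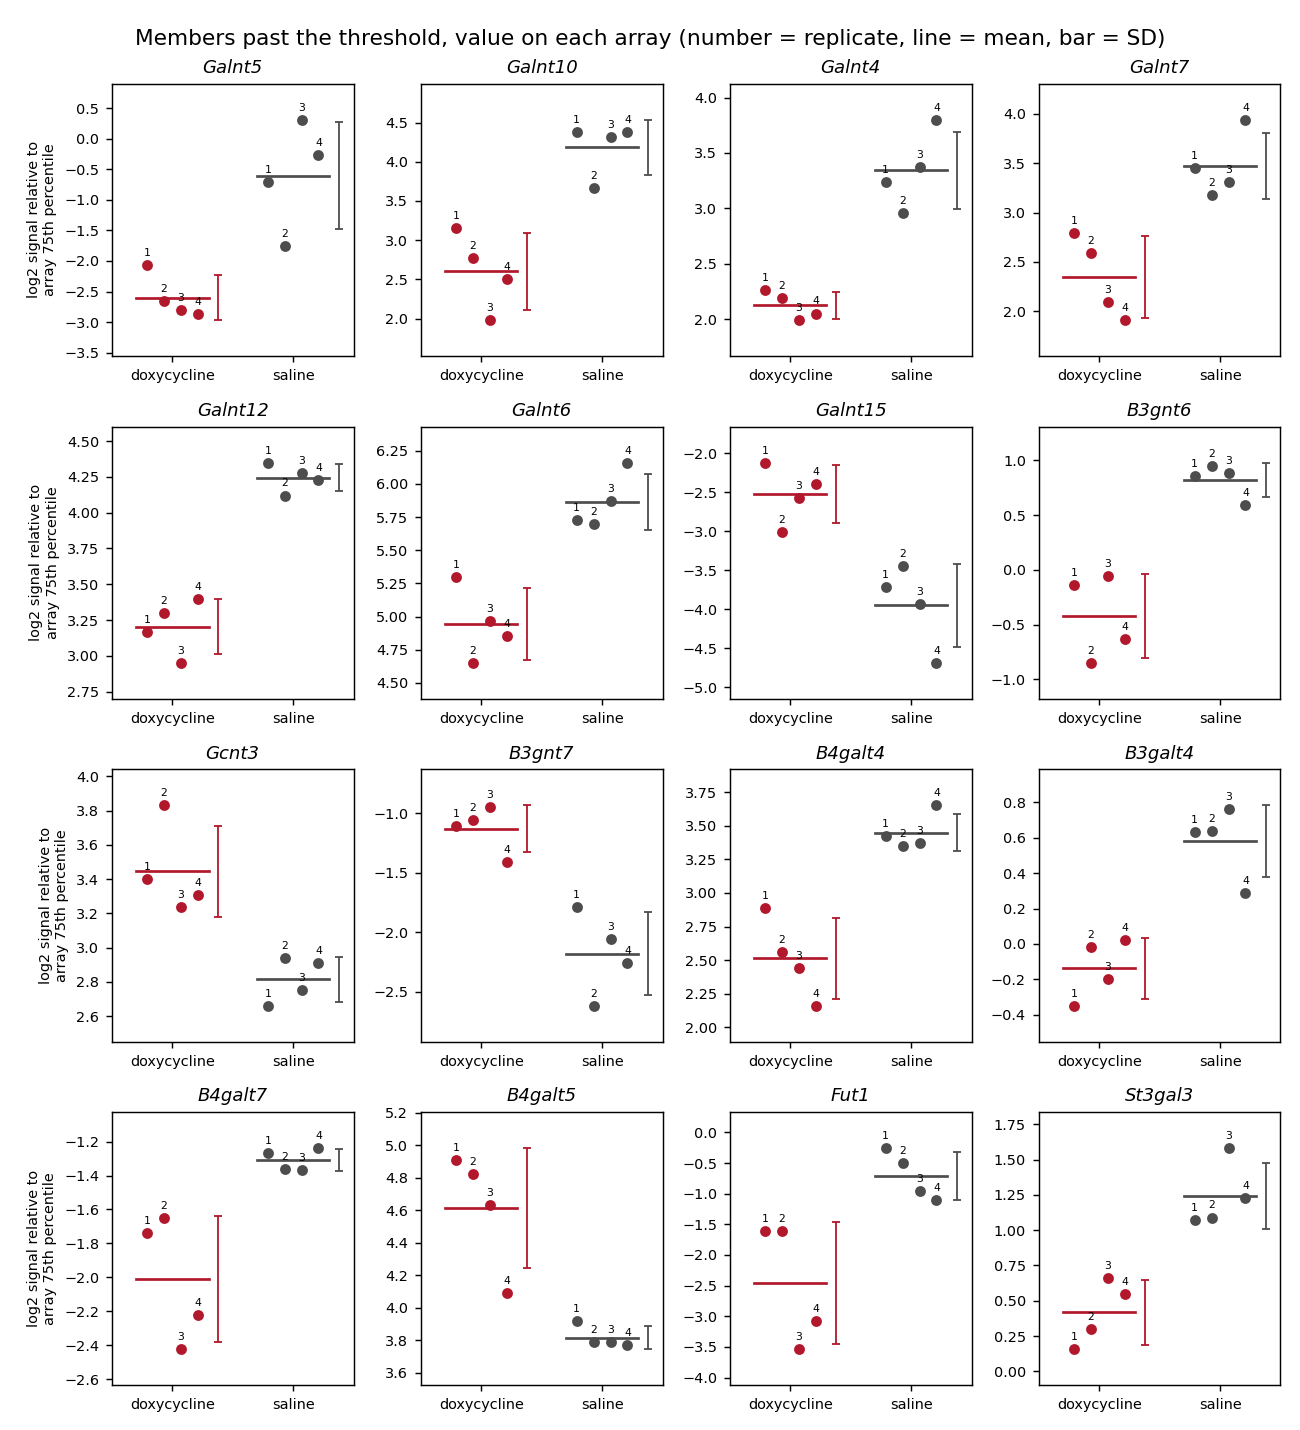
Each panel gives 1 member that passed the threshold, with its log2 signal relative to the array's 75th percentile on the 4 doxycycline arrays (left) and the 4 saline arrays (right). Numbers are replicates, lines group means and bars SD, and in every panel the groups do not overlap. Panels have their own scales.

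At the core and branching step, 8 members held 6 that were tested, of which 1 fell and 1 rose (median 0.27). B3gnt6, the core 3 synthase of the gut, read -0.14, -0.85, -0.06 and -0.63 with doxycycline, against 0.86, 0.95, 0.88 and 0.59 with saline (chromosome 7, 105341054 to 105341113). Every doxycycline value was below 0 and every saline value above it. It was 2.36-fold lower (difference -1.24, SE 0.207, adjusted p = 0.00666). Gcnt3, the mucin-type branching enzyme that makes core 2 and core 4, read 3.40, 3.83, 3.24 and 3.31 with doxycycline, against 2.66, 2.94, 2.75 and 2.91 with saline (chromosome 9, 69879436 to 69879495). It was the only core or branching gene to rise, 1.55-fold (difference 0.63, SE 0.171, adjusted p = 0.0414). Leaving out any single array other than saline 4 ended the Gcnt3 result, with adjusted p from 0.0544 without saline 2 to 0.118 without saline 1, and array median scaling gave 0.0583. Core 4 is built on core 3, the product of B3gnt6, and the fall of B3gnt6 was kept when any single array was left out.

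The pair that makes core 1 moved apart without passing. C1galt1, the core 1 synthase, read 0.97, 1.54, 1.02 and 0.99 with doxycycline, against 0.39, 0.47, 0.58 and 0.84 with saline. C1galt1c1 encodes Cosmc, the chaperone that C1galt1 needs to fold, and read 2.59, 2.80, 2.34 and 2.75 with doxycycline, against 3.24, 3.0, 3.16 and 3.22 with saline. The groups did not overlap for either gene. The differences were 0.56 for C1galt1 (95% interval 0.14 to 0.97, adjusted p = 0.075) and -0.54 for C1galt1c1 (-0.88 to -0.19, adjusted p = 0.0501), and C1galt1c1 passed under 6 alternatives, among them normexp background (-0.43, adjusted p = 0.0439). Gcnt1, the core 2 enzyme found in many cells, read 3.03, 2.41, 2.91 and 2.32 with doxycycline, against 3.07, 3.50, 2.73 and 1.45 with saline, a difference of -0.02 (interval -0.94 to 0.91) whose saline values enclosed all doxycycline values. Gcnt2, which branches poly-lactosamine into the I antigen and was chosen after its values were seen, read 2.33, 2.11, 2.29 and 1.55 with doxycycline, against 0.97, 0.89, 1.21 and 1.90 with saline. Only saline 4 overlapped the doxycycline range, and the difference was 0.83 (adjusted p = 0.0718), or 1.05 without saline 4 (adjusted p = 0.022). Leaving out any other single array gave an adjusted p from 0.0572 to 0.171.

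Of 8 B3gnt and related members that add N-acetylglucosamine to lengthen chains, 7 were tested, 1 rose and 0 fell by limma, with 1 of the 7 at an unadjusted p under 0.05 (median 0.19). B3gnt7, which extends chains of the keratan sulfate type, read -1.11, -1.06, -0.95 and -1.41 with doxycycline, against -1.79, -2.62, -2.06 and -2.26 with saline (chromosome 1, 88202952 to 88203011). The groups did not overlap, and the level was 2.07-fold higher (difference 1.05, SE 0.205, adjusted p = 0.0129). B3gnt3, which extends core 1, read 1.46, 1.32, 0.51 and -1.18 with doxycycline, against 1.25, 0.87, 0.96 and 0.71 with saline. Doxycycline 4 alone lay far below the rest, and the difference was -0.42 (adjusted p = 0.621), or 0.15 without that array (adjusted p = 0.765). B3gnt2, a main enzyme of poly-lactosamine chains, differed by 0.19 (interval -0.17 to 0.55), B3gnt5, the lactotriaosylceramide synthase, by 0.42 (-0.39 to 1.23) and B3gnt9 by -0.26 (-0.71 to 0.18). B3gntl1 was well above background on 4 doxycycline and 0 saline arrays, so it gets no fold, and it did not pass (adjusted p = 0.329).

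Galactose-adding members numbered 12, of which 10 were tested, 3 fell and 1 rose (median -0.14). B4galt4, which acts on sulfated and other N-acetylglucosamine ends, read 2.89, 2.56, 2.44 and 2.16 with doxycycline, against 3.42, 3.35, 3.37 and 3.65 with saline (chromosome 16, 38768778 to 38768837). The saline values lay close together above all doxycycline values. It was 1.91-fold lower (difference -0.93, SE 0.181, adjusted p = 0.0128), and its second probe gave -0.94 (adjusted p = 0.0105). B3galt4, the synthase of the glycolipid GM1, read -0.35, -0.02, -0.20 and 0.02 with doxycycline, against 0.63, 0.64, 0.76 and 0.29 with saline (chromosome 17, 34087001 to 34087060). The groups did not overlap, and it was 1.65-fold lower (difference -0.72, SE 0.162, adjusted p = 0.022), with -0.75 on its second probe (adjusted p = 0.0149). The adjusted p became 0.0655 when doxycycline 3 was left out, 0.0699 for saline 1 and 0.0745 for saline 3.

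B4galt7, the first galactosyltransferase of the proteoglycan linker, read -1.74, -1.65, -2.42 and -2.22 with doxycycline, against -1.27, -1.36, -1.37 and -1.24 with saline (chromosome 13, 55711210 to 55711269). Saline values were tight, and doxycycline 3 and 4 lay farthest below them. It was 1.62-fold lower (difference -0.70, SE 0.197, adjusted p = 0.0474). This was the weakest of the falls: 12 of 23 alternatives lost it, among them the removal of doxycycline 3 or 4 or of any saline array, with adjusted p up to 0.119 for single arrays. B3galt6, which adds the next galactose of that linker, did not pass (difference -0.58, interval -1.26 to 0.11).

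B4galt5, the main lactosylceramide synthase in mice, was the galactosyltransferase that rose. It read 4.91, 4.82, 4.63 and 4.09 with doxycycline, against 3.92, 3.79, 3.79 and 3.77 with saline (chromosome 2, 167124056 to 167124115). All saline values lay within a narrow band below the lowest doxycycline value. It was 1.73-fold higher (difference 0.79, SE 0.196, adjusted p = 0.0303), and its second probe gave 1.22 (adjusted p = 0.0137). The result of the brighter probe was lost without doxycycline 1, 2 or 3 or saline 1, 2 or 3, with adjusted p from 0.0536 to 0.0827. B4galt6, the other lactosylceramide synthase, read 2.46, 2.12, 2.22 and 1.98 with doxycycline, against 1.53, 1.44, 1.39 and 1.99 with saline. It overlapped through saline 4 only. On the brighter probe the difference was 0.61 (adjusted p = 0.0579), or 0.74 without saline 4 (adjusted p = 0.0211). Leaving out any other single array gave an adjusted p from 0.0793 to 0.153. The second probe gave 0.86 (adjusted p = 0.0128).

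B3galt5, which makes type 1 chains and was chosen after its values were seen, read 1.52, 1.31, 1.64 and 0.75 with doxycycline, against -1.42, -0.21, -0.25 and 2.32 with saline. Saline 4 held the highest of all 8 values and the other 3 saline arrays the lowest. The difference was 1.19 (adjusted p = 0.263), and without saline 4 it was 1.93, a 3.81-fold higher level (adjusted p = 0.0137). Leaving out any other single array gave an adjusted p from 0.296 to 0.519. B4galt1, the enzyme that also makes lactose in the mammary gland, differed by 0.37 (interval -0.05 to 0.79) and B4galt2 by -0.34 (-0.80 to 0.12). B4galt3 read 4.63, 4.67, 4.28 and 4.05 with doxycycline, against 4.22, 4.15, 4.35 and 4.68 with saline (difference 0.06, interval -0.39 to 0.50), and the groups overlapped.

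Among 8 fucosyltransferases 7 were tested, 1 fell and 0 rose by limma, with 2 of the 7 at an unadjusted p under 0.05 (median -0.09). Fut1 and Fut2 both build the H antigen by α1,2-linkage, and Fut2 is the secretor enzyme of epithelia. Their probes lie 28.3 kb apart on chromosome 7 in mm9, at 52876318 to 52876377 for Fut1 and 52904672 to 52904731 for Fut2. Fut1 read -1.61, -1.61, -3.53 and -3.07 with doxycycline, against -0.26, -0.50, -0.96 and -1.10 with saline. All doxycycline values lay lower, with doxycycline 3 and 4 lowest. It was 3.36-fold lower (difference -1.75, SE 0.454, adjusted p = 0.0358), a result lost without doxycycline 3 or 4 or saline 1, 2 or 3, with adjusted p from 0.0654 to 0.0957. Fut2 read -0.50, 0.29, -1.11 and -1.39 with doxycycline, against -3.56, -1.73, -2.63 and -1.08 with saline, where it was well above background on 3 of 4 arrays. Saline 4 lay inside the doxycycline range and the other saline arrays below it. The estimate was a 2.99-fold higher level (difference 1.58, SE 0.551, adjusted p = 0.0886), and without saline 4 the difference was 1.97 (adjusted p = 0.044). Leaving out any other single array gave an adjusted p from 0.0917 to 0.189. The neighbours thus had estimates of opposite sign, of which Fut1's alone passed with all arrays.

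The remaining fucosyltransferases overlapped between groups. Fut4, an α1,3-enzyme of Lewis structures, read 1.88, 1.32, 2.04 and 1.44 with doxycycline, against 1.57, 1.19, 1.49 and 1.84 with saline (difference 0.14, interval -0.34 to 0.63). Fut8, which adds core fucose to N-glycans, differed by -0.06 (-0.54 to 0.42). Fut10 and Fut11, which are less well characterised, differed by -0.18 (-0.75 to 0.38) and -0.39 (-0.80 to 0.03). Fut10 read -2.12, -1.80, -3.03 and -2.48 with doxycycline, against -2.10, -2.19, -2.21 and -2.19 with saline, with the 4 saline values inside the doxycycline range.

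**Figure D3:**
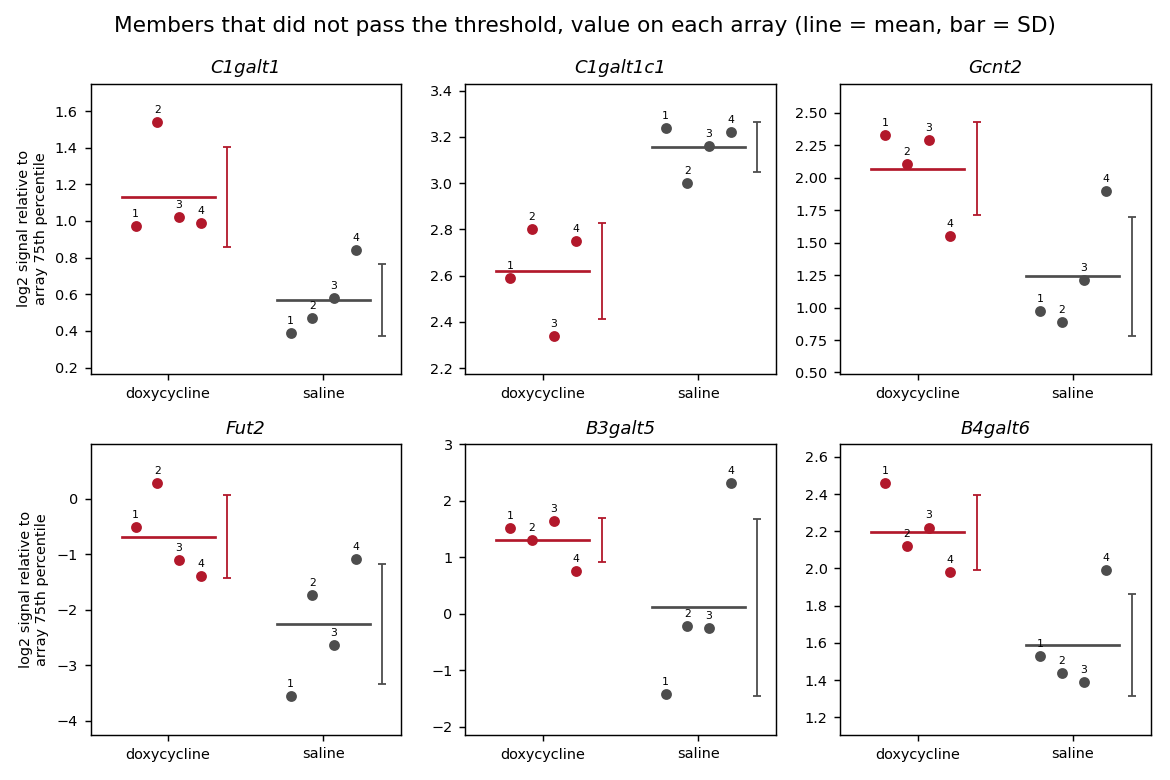
Each panel gives 1 member that did not pass the threshold with all arrays, as log2 signal relative to the array's 75th percentile on the 4 doxycycline arrays (left) and the 4 saline arrays (right). Numbers are replicates, lines means and bars SD, and panels have their own scales. C1galt1 and C1galt1c1 do not overlap and lie in opposite directions, while for Gcnt2, Fut2, B3galt5 and B4galt6 saline 4 is the only saline array within or above the doxycycline range.

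Sialic acid is added by 14 members, of which 11 were tested, 1 fell and 0 rose by limma, with 3 of the 11 at an unadjusted p under 0.05 (median -0.37). St3gal3, which caps lactosamine chains with α2,3-sialic acid, read 0.16, 0.30, 0.66 and 0.55 with doxycycline, against 1.07, 1.09, 1.58 and 1.23 with saline (chromosome 4, 117604858 to 117604917). The groups did not overlap. It was 1.77-fold lower (difference -0.82, SE 0.180, adjusted p = 0.0197), a result lost without saline 3 (-0.71, adjusted p = 0.0606).

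St3gal1, which caps core 1, read 1.86, 2.46, 1.99 and 2.15 with doxycycline, against 1.91, 2.40, 2.15 and 1.07 with saline, a difference of 0.23 (interval -0.41 to 0.88) with overlapping groups. St3gal4 read 5.67, 5.13, 5.05 and 5.47 with doxycycline, against 5.85, 5.69, 5.34 and 5.92 with saline, and St3gal6, a related enzyme for lactosamine ends, 0.68, 0.93, 0.69 and 1.49 with doxycycline, against 0.71, 0.46, 0.58 and 0.16 with saline. Both overlapped, with estimates of opposite sign, -0.37 (-0.82 to 0.08) for St3gal4 and 0.47 (-0.03 to 0.97) for St3gal6. St6galnac1, which makes the sialyl-Tn antigen, read 3.16, 0.80, 1.71 and 2.14 with doxycycline, against 1.51, 1.59, 1.64 and 2.16 with saline. The doxycycline values enclosed the saline values, and the difference was 0.23 (interval -0.76 to 1.21, adjusted p = 0.761). St6galnac2, with a related activity, differed by -0.62 (-1.17 to -0.06, adjusted p = 0.123) and St6galnac6 by -0.50 (-0.89 to -0.10, adjusted p = 0.0914). St3gal2, St3gal5 (the GM3 synthase) and St6galnac4 differed by -0.38, 0.36 and 0.23, none past the threshold.

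A further 3 members, singled out after their values were seen, were highest on saline 2 and overlapped between the groups. Gcnt1, given above, was also highest on saline 2 (3.50) and overlapped, so the pattern is not particular to these 3. Fut7, which leukocytes use to make the sialyl Lewis x ligand of selectins, read -1.95, -1.85, -2.37 and -0.82 with doxycycline, against -2.03, -0.48, -1.90 and -2.21 with saline. Saline 2 was highest, then doxycycline 4. St6gal1, the α2,6-sialyltransferase abundant in B cells, read -0.43, -0.02, -0.39 and 0.70 with doxycycline, against 0.55, 1.07, -0.09 and 0.29 with saline (difference -0.49, adjusted p = 0.327), again with saline 2 and then doxycycline 4 on top. B3gnt8, which lengthens branches of complex N-glycans in human cells, read -2.78, -2.04, -3.34 and -2.25 with doxycycline and -2.56, -1.33, -3.10 and -3.16 with saline, with saline 2 highest and only 2 of 4 saline arrays well above background. The differences of Fut7 and B3gnt8 were -0.09 and -0.06.

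B cell genes, named here after their values were seen, were also high on saline 2. Cd79a read 2.01, 3.05, 2.69 and 4.01 with doxycycline, against 0.99, 3.81, 0.43 and 0.28 with saline, and Ms4a1 read 1.69, 2.97, 1.52 and 3.1 with doxycycline, against -1.11, 3.97, -1.68 and -1.78 with saline. Saline 1, 3 and 4 were the lowest arrays for both. St6gal1 differed from them there, reading 0.55 on saline 1 and 0.29 on saline 4, above doxycycline 1 to 3. Of 8 tested B and plasma cell markers 2 fell and 0 rose by limma (3 and 2 at an unadjusted p under 0.05; median 1.45), and the summed level was 6.43 to 7.42 with doxycycline and 6.91 to 7.83 with saline. The part of lymphoid cells in these members' values was not tested. The Cd79a probe is placed on chromosome 12 (53180558 to 53180617, mm9), and its match to the gene was not checked.

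**Figure D4:**
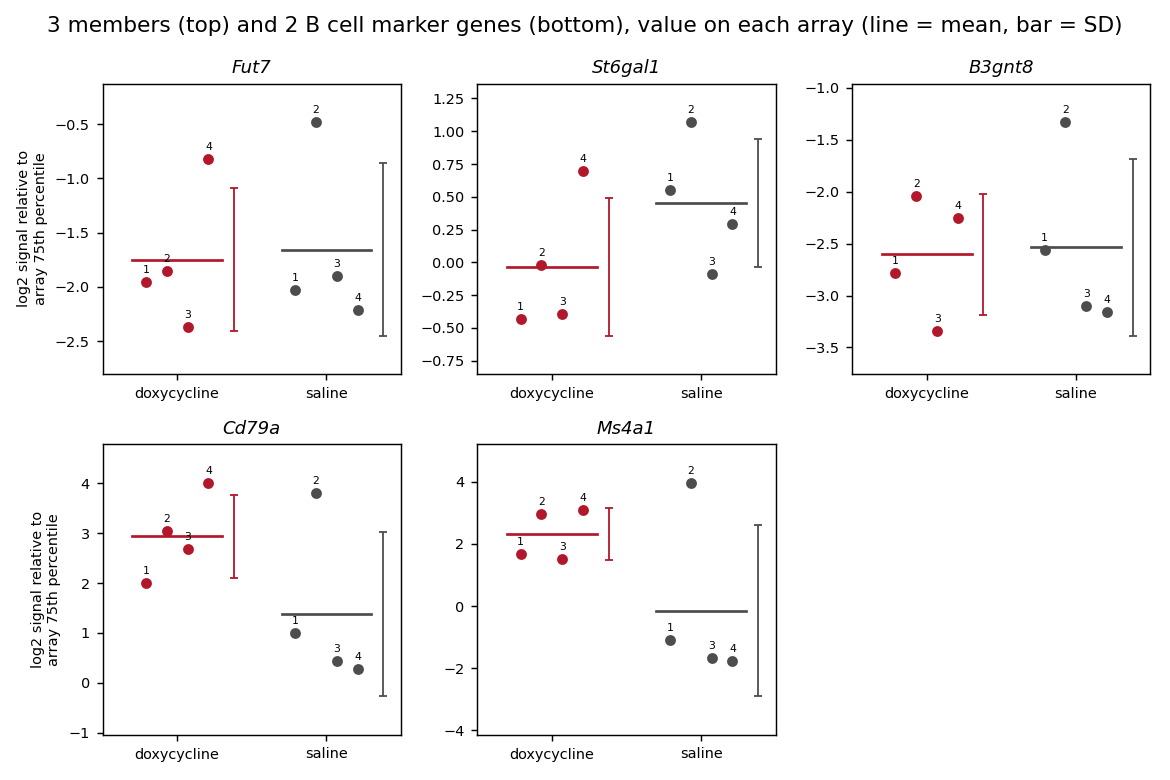
The top row gives the members Fut7, St6gal1 and B3gnt8 and the bottom row the B cell genes Cd79a and Ms4a1, as log2 signal relative to the array's 75th percentile on the 4 doxycycline arrays (left) and the 4 saline arrays (right). Numbers are replicates, lines means and bars SD. Saline 2 is the highest saline array in all 5 panels.

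Where a member had several probes, their directions could be compared. Of 15 members with 2 or more kept probes, 9 had the same direction on every probe, and 5 of those passed on every probe: Galnt6, Galnt12, B3galt4, B4galt4 and B4galt5. B4galt6 passed on its second probe only. The 6 with opposite signs were Gcnt1, B4galt3, Fut4, Fut10, St3gal1 and St6galnac1, and none of their probes passed. Their second probes gave differences of -0.21 for Fut4, 0.18 for Fut10, -0.41 for St3gal1 and -0.17 for St6galnac1, the second probe of B4galt3 gave 0.00, and the 3 probes of Gcnt1 gave -0.02, 0.18 and -0.12.

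The 14 untested members had low signal in both groups. B3gnt4, Fut9, Galnt9, Galnt13, Galntl6, Gcnt7, St6galnac3, St6galnac5 and the pseudogene Fut4-ps1 were well above background on 0 of 8 arrays. B3galt1, Galntl5 and St6gal2 reached it on 1 doxycycline array and 0 saline arrays, Gcnt4 on 2 and 0, and B3galt2 on 2 and 1. Apart from Galnt9 and Galntl6, the members at 0 of 8 arrays read lower on every doxycycline array than on any saline array. Such lower readings were not particular to the members: with no filter on dim probes 11871 genes fell, against 1721 with it. The share of all dim genes that separate in this way was not counted, so no fall is read from these values. Fut9 read -7.06, -7.45, -7.22 and -7.33 with doxycycline, against -5.48, -5.0, -5.45 and -5.07 with saline. Of the 55 tested, 49 were well above background on all 8 arrays.

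The rest of the pathway was read from 9 lists that share no member with the glycosyltransferases above. All 7 goblet markers counted earlier are also in these lists, so their falls are counted again here. Of the 137 genes tested in the lists 39 fell and 2 rose. Without saline 3 the counts were 25 and 1, with 726 falls and 648 rises over all genes. Among all genes tested 8.06% fell and 5.97% rose. A count of 1 fall in a list, as for mucins and Golgi transporters, cannot be set apart from that share. Muc2 read 4.76, 4.59, 4.50 and 4.33 with doxycycline, against 6.65, 6.21, 6.90 and 6.34 with saline, 3.94-fold lower (difference -1.98, SE 0.190, adjusted p = 6.07e-04). It was the only 1 of 9 tested mucin genes to pass (median -0.17). Among 11 mucus proteins 6 fell and 1 rose (median -1.07). The IgG Fc-binding mucus protein Fcgbp was 3.41-fold and the trefoil peptide Tff3 2.25-fold lower, the kallikrein Klk1, whose family is near-identical in sequence so that its probe is uncertain, 6.51-fold lower, and the goblet cell cytokine Retnlb 2.93-fold higher. Of 14 transcription and secretory factors of goblet cells 9 fell and 0 rose, the same counts as at an unadjusted p under 0.05 (median -1.29), among them Creb3l4 (6.27-fold), Spdef (3.64-fold), Foxa2 (3.18-fold) and Gfi1 (2.69-fold).

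The next lists cover donor supply and other sugar modifications. Among 30 genes of nucleotide sugar synthesis 7 fell and 1 rose (median -0.25), with the galactose enzymes Galt 2.40-fold and Galk2 1.73-fold lower, the glucosamine acetyltransferase Gnpnat1 2.02-fold lower and Gne, which starts sialic acid synthesis, 1.71-fold lower. Galt was well above background on 3 of 4 saline arrays. The Gnpnat1 probe is placed on chromosome 18 (86411863 to 86411922, mm9), and its match to the gene was not checked. Of 13 Golgi transporters only Slc35b2, the carrier of the sulfate donor PAPS, passed (1.65-fold lower, list median -0.30). The PAPS synthases themselves, Papss1 (3.0-fold) and Papss2 (2.29-fold), and the sulfotransferase Gal3st1 (2.34-fold) were the 3 of 13 sulfation genes to fall, and 0 rose by limma (2 at an unadjusted p under 0.05; median -0.29).

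Of 18 other terminal glycosyltransferases 4 fell and 0 rose, also at an unadjusted p under 0.05, with a median of 0.00. They were B4galnt2, which makes the Sda antigen of the gut (2.99-fold), Pofut1 (2.49-fold) and Rfng (2.0-fold), which place and extend O-fucose on Notch receptors, and the O-GlcNAc transferase Ogt (1.92-fold). Of 14 N-glycan branching genes 4 fell and 0 rose by limma (5 and 1 at an unadjusted p under 0.05; median -0.15), namely Mgat3 (2.61-fold), Mgat4c (3.08-fold, the only one of these with overlapping groups), Mgat1 (1.43-fold) and Man1a2 (1.56-fold). Of 15 glycosidases 4 fell and 0 rose by limma (10 and 0 at an unadjusted p under 0.05; median -0.52), among them the lysosomal enzymes Hexa (2.09-fold) and Glb1 (1.6-fold) and the cytosolic Engase (1.66-fold).

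**Figure D5:**
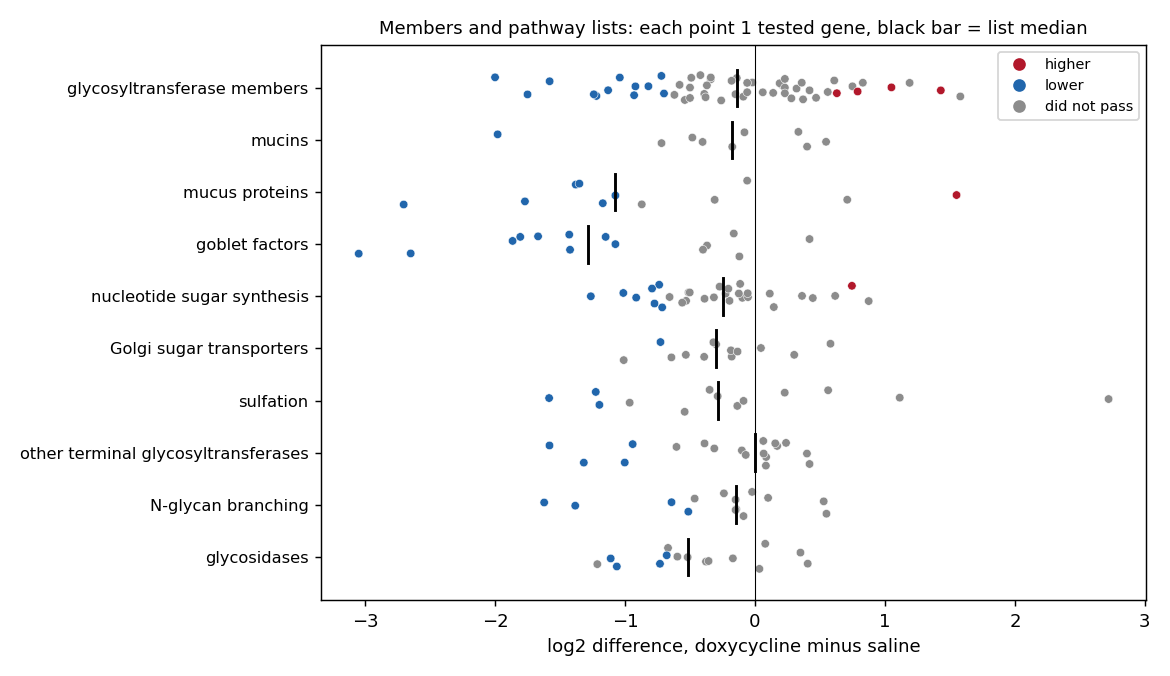
Each point is the log2 difference, doxycycline minus saline, of 1 tested gene, in red where it rose, blue where it fell and grey where it did not pass, and black bars are list medians. The factors and mucus proteins of goblet cells have the lowest medians, -1.29 and -1.07, while the glycosyltransferase members have -0.14.

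Other epithelial markers were read on the same arrays. Of 8 enteroendocrine markers 6 fell and 0 rose by limma (8 and 0 at an unadjusted p under 0.05), with sums of 5.19 to 6.22 with doxycycline and 6.85 to 7.38 with saline, and of 6 stem cell markers 5 fell and 0 rose (6 and 0), with 4.61 to 4.99 with doxycycline and 5.28 to 5.89 with saline. Of 6 Paneth cell markers 0 passed in either direction by limma, nor at an unadjusted p under 0.05 (sums 9.85 to 10.54 with doxycycline and 10.06 to 10.34 with saline). The part of enteroendocrine and stem cells in the falls of the members was not tested.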

How the data were processed

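The members and lists were chosen with earlier results of these data known. The labels give 200 ng of RNA per 1-colour Agilent array. As deposited, each scanner file gives linear spot intensity from Agilent Feature Extraction 10.7.3.1 per the submitters' processing notes, background-subtracted and detrended per the file headers. The deposited value table holds log2 values that equal the log2 processed intensity minus a constant for 99.8% of probes within 0.01. Its scale and direction are therefore known, its genes are not centred, and it served as an alternative. Its column medians were -3.77, -3.92, -3.83 and -3.81 for doxycycline 1 to 4 and -3.97, -3.70, -3.79 and -3.86 for saline 1 to 4.

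Each array held 62976 spots, 59305 of them for 55681 probes. Control spots and outlier spots (169 to 259 per array) were left out, and 0 probe spots were saturated. Spots of a probe were averaged as log2 processed intensity minus the array's 75th percentile. A gene took the brightest of its probes and was tested if the scanner software called that probe well above background on 4 of 8 arrays or more. Groups were compared by two-sided moderated tests of limma 3.58.1 (R 4.3.3), adjusted by Benjamini-Hochberg for all 21342 genes. The 4 arrays a group limit the precision. The script was tested on simulated data. Errors beside differences are SE, and intervals are 95%. A summed level is the log2 of a list's summed linear signals.

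Members past the threshold are named with full values, as are Galnt3, Galnt7, Galnt12, C1galt1, C1galt1c1, Gcnt1, Gcnt3, B3gnt6, B3gnt7, Fut2, St3gal1, St3gal4, St3gal6, St6gal1, St6galnac1 and members whose probes disagree. From each pathway list come up to 4 genes with the smallest p among those past the threshold. Alternatives were normexp background (offset 50), quantile and median scaling, the value table, other filters and probe rules, a common floor of -2.83, outlier spots kept, array weights, trended robust variance, a replicate block, each array left out and, chosen after seeing the data, saline 2 and 4 both left out. Same-numbered samples did not deviate together (r of 0.01, -0.04, 0.11 and 0.01), and the main comparison did not pair them. Such correlations cannot exclude a pairing, since replicate number is also the slide column. Probe positions are mm9, per the file headers. Without mm9 gene models, exons are not named. One pathway gene that meets the naming rule is not reported here.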

Additional observations from a re-analysis of the deposited data

Results flagged for a closer look

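A sample that lay far from the other 3 of its group was looked for in the 110 groups of 4 that the 55 tested members give, by Dixon's test of the gap to the nearest value over the range, at 95%. It was found in 9 groups, and chance gives about 1 in 20. Saline 4 was the sample in 3 of them: B3galt6 read -0.45 there, against at most -1.07 on the other saline arrays, B4galt1 read 5.87, against at most 5.32, and Galnt18 read -2.80, against at least -2.02. In Galnt10, saline 2 was lowest at 3.66, with the next at 4.32, which brings the saline group nearer to the doxycycline group. In B4galt5, saline 1 was highest at 3.92, with the next at 3.79, and in Fut10 saline 1 was highest at -2.10, with the next at -2.19, both small gaps within tight groups. In C1galt1, doxycycline 2 was highest at 1.54, with the next at 1.02. In Galnt11, doxycycline 3 was lowest at -1.0, with the next at -0.64, and in B3gntl1 doxycycline 4 was lowest at -3.30, with the next at -3.00. Values are log2 signal relative to the array's 75th percentile.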

How the results depend on the processing

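The falls of Galnt5, Galnt10, Galnt4, Galnt12 and B3gnt6 passed under all 23 alternatives, and no member that passed changed direction under any. With no filter on dim probes, 8 members rose and 21 fell (median -0.37), and 11871 genes fell. Array weights gave 11 members that rose, 2906 and 3541 genes that rose and fell, and 4 pathway genes that rose. With the replicate block, 1 member rose and 8 fell, 773 genes rose and 919 fell, and 1 pathway gene rose. Replicate number is also the column on the slide. That pathway count was also 1 with normexp background, with the filter on 3 arrays of either group, with a common floor and with trended robust variance. With saline 2 and 4 both left out, 6 members and 1036 genes fell. Leaving out 1 array at a time gave 2 to 9 members that rose, 8 to 12 that fell, 641 to 1474 genes that rose, 726 to 1990 that fell, 1 to 3 pathway genes that rose and 25 to 40 that fell. The cause of these shifts was not tested, beyond the fewer arrays or other genes tested that the settings imply. Among 13 members, none past the threshold, the estimate changed sign. With single arrays left out, it ranged from -0.73 to 0.15 for B3gnt3, -0.27 to 0.34 for B3gnt8, -0.03 to 0.17 for B4galt3, -0.37 to 0.04 for Fut10, -0.4 to 0.30 for Fut7, -0.15 to 0.08 for Fut8, -0.96 to 0.44 for Galnt14, -0.25 to 0.01 for Galnt2, -0.43 to 0.25 for Gcnt1, -0.04 to 0.41 for St3gal1 and -0.18 to 0.61 for St6galnac1. With saline 2 and 4 both left out it was 0.23 for B3gnt8, 0.22 for Fut7 and 0.49 for Galnt14. Averaged probes gave -0.03 for Fut4, 0.01 for Gcnt1 and -0.09 for St3gal1. Normexp gave -0.31 for B3gntl1 and 0.06 for Gcnt1, quantile scaling 0.03 for Gcnt1 and array weights 0.47 for Galnt14. Dim members (Galnt15, B3gntl1, B3gnt8, Galnt14) are limited by signal over background.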

Other observations

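Immune and vessel marker lists were read on the same arrays, where 8.06% of all genes tested fell and 5.97% rose. Of 8 tested macrophage markers 3 rose and 1 fell (median 0.77), of 5 neutrophil markers 2 rose and 0 fell, also at an unadjusted p under 0.05 (median 0.80), and of 6 endothelial markers 2 rose and 0 fell by limma, with 4 and 0 at an unadjusted p under 0.05 (median 0.85). The neutrophil rises were S100a8 and S100a9, whose groups overlapped, and S100a8 was well above background on 4 doxycycline and 0 saline arrays. The endothelial rises were Selp, at 4 and 0, and Glycam1, at 4 and 1. The tests of S100a8, Selp and Glycam1 thus rest largely on saline values not well above background. The probe of the neutrophil marker Csf3r is placed on chromosome 19, and its match to the gene was not checked. Summed levels were 6.07 to 6.46 with doxycycline and 5.23 to 5.87 with saline for macrophage markers, and 3.80 to 4.47 with doxycycline and 2.85 to 3.81 with saline for endothelial markers. Of 8 T and NK cell markers 2 fell and 0 rose by limma, with 3 and 0 at an unadjusted p under 0.05 (median -0.30). Of 5 tested tuft cell markers 2 fell and 0 rose, also at an unadjusted p under 0.05 (median -0.34), and of 8 mesenchymal and muscle markers 1 rose and 0 fell by limma, with 1 and 1 at an unadjusted p under 0.05 (median -0.05).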
